A study of Mus musculus with 17 samples.

Results

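Ankrd22 is 1 gene of the 20227 that had a value on these arrays. It was chosen on its readout: among genes whose every FLT3/ITD array lay below every parental, vector and wild-type array, it had the largest difference between the ITD lines and the mean of those 3 groups, called the controls. That difference is therefore given as a description with no test. The platform annotation mapped 11 probe sets to Ankrd22 alone, and all 11 passed the filter on dim probe sets. The gene value was their mean. A probe set is a group of probes for 1 stretch of an exon, and values are log2 signals, so a difference of 1 is a doubling.

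The cells were 32D, an immortalised mouse myeloblast-like line that depends on the cytokine IL-3, and total RNA of 17 cultures was hybridised to Affymetrix Mouse Exon 1.0 ST arrays. Parental cells (2 arrays), cells with the empty retroviral vector pLXRN (2) and cells with human wild-type FLT3 (2) were kept in 1 ng/mL of mouse IL-3. Wild-type FLT3 cells were also grown with FLT3 ligand at 20 ng/mL (2 arrays). These ligand arrays are not part of the mean of the controls but are counted among the 8 control arrays. The sample labels of these name only the ligand, and whether IL-3 was still present is not stated. The remaining 9 arrays held 9 lines, each with a different human FLT3 that carried an internal tandem duplication (ITD), which switches the receptor on without ligand, and these lines grew without IL-3. They are numbered 1 to 9. The transduced lines were polyclonal populations under the retroviral promoter, and 1 array stood for each mutant. The mutant receptor and the absence of IL-3 cannot be told apart. The labels call the arrays of a control pair biological replicates but do not say how they were made, so the spread within a pair may be technical. In the fit of all arrays, p-values measure a spread pooled over these pairs and the 9 different ITD lines. The precision is limited by the number of arrays.

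Ankyrin repeats are short helical modules that bind other proteins, and Ankrd22 encodes a small protein made largely of them. Its human counterpart has been described as a lipid-modified membrane protein found on lipid droplets. In human blood cells its transcript is among the genes that interferon raises. FLT3 is a tyrosine kinase receptor found on early progenitors of the blood. In 32D cells IL-3 sustains growth, while G-CSF drives maturation toward neutrophils.

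The upstream region of Ankrd22 is shown with those of Pram1 and Gla, which rank 1 and 3 by likeness of pattern over the arrays, as described further on. Evi2a, at rank 2, was not in the RefSeq promoter table, and Ceacam10, at rank 4, was in it but is not shown. Each runs from 250 bases before to 50 bases after the start of the transcript, 5′ to 3′, in assembly GRCm38.p6. Ankrd22 lies at chr19:34165992-34166291 on the minus strand, Pram1 at chr17:33637845-33638144 on the plus strand (the first of its 2 entries) and Gla at chrX:134600956-134601255 on the minus strand. Capitals mark matches to any of 6 short motifs on either strand.
Ankrd22: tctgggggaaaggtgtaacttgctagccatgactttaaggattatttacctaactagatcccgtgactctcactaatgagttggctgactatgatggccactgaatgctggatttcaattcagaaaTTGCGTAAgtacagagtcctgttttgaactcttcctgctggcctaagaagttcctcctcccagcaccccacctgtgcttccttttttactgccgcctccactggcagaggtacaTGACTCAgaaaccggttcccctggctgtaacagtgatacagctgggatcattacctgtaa
Pram1: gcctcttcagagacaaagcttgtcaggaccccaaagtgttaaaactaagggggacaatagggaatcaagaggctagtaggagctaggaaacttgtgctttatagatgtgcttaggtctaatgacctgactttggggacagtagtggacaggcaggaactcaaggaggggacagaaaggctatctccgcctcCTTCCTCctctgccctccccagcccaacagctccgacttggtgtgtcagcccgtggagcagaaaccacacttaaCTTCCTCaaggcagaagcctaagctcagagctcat
Gla: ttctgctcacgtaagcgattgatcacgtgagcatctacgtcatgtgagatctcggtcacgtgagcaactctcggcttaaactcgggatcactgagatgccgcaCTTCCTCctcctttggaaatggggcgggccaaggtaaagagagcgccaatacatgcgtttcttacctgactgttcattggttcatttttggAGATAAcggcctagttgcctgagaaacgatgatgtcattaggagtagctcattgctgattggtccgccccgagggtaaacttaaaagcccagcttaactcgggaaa

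The motifs searched, with N for any base, were TTCNNNGAA for STAT factors, the interferon-stimulated response element, TGANTCA for AP-1 and TTGCNNAA for C/EBP factors. The letters for PU.1 were GAGGAAG. Those for GATA factors were AGATAA. All 6 were chosen after the Ankrd22 sequence had been read. Ankrd22 held TTGCGTAA, a match to the C/EBP letters, which began at position -124 from the start site. It also held TGACTCA, a match to the AP-1 letters, from position -10. Among 27025 promoters of the same length, 10.8% held the C/EBP letters and 7.93% the AP-1 letters. The STAT and interferon letters, held by 8.47% and 3.49% of promoters, were not in these windows. Pram1 had the PU.1 letters at 2 places and Gla at 1, on the minus strand of the window in each case, and Gla also had the GATA letters. The PU.1 letters were in 13.5% of promoters and the GATA letters in 11.4%. None of the 6 motifs was found in Ceacam10. The matches overlapped no other match, and they describe letters, not sites shown to be bound.

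Ankrd22 was lowest with ITD, intermediate in parental cells and highest with wild-type FLT3. The parental arrays read 7.73 and 7.80, the vector arrays 9.00 and 9.20, the wild-type arrays 9.90 and 9.76, and the arrays with ligand 9.26 and 9.40. The ITD lines 1 to 9 read 5.83, 5.85, 6.02, 5.80, 6.43, 6.17, 7.47, 5.95 and 6.56. No ITD array reached any other array, which was the case for 0.934% of all genes. Group means were 7.77 ± 0.05 for parental cells, 9.10 ± 0.15 for the vector, 9.83 ± 0.10 for wild-type FLT3, 9.33 ± 0.10 with ligand (SD, n = 2 each) and 6.23 ± 0.54 for ITD (SD, n = 9). Each control pair differed by at most 0.21, and no control group overlapped another, though the vector and ligand arrays came close (9.20 and 9.26).

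**Figure D1:**
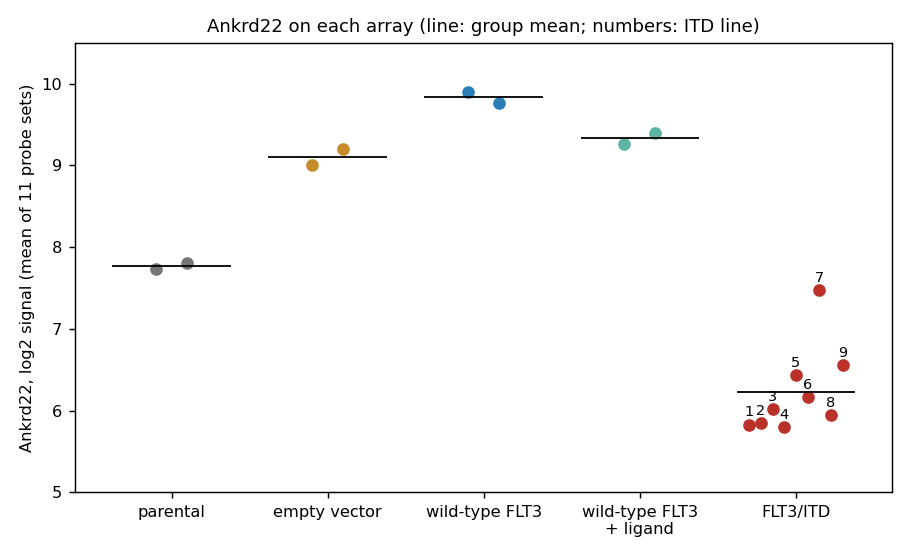
Log2 signal of Ankrd22 (vertical axis) on each of the 17 arrays, by group (horizontal axis). Points are arrays, horizontal lines are group means and numbers name the ITD lines. The 8 control arrays lie between 7.73 and 9.90, and the ITD lines lie between 5.80 and 7.47 with line 7 at the top.

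Against the mean of the controls, the ITD difference was -2.67 ± 0.20 (log2, SE of the fit), a level 6.36-fold lower. How large it was depended on the control line. It was -1.54 ± 0.30 against parental cells, -2.87 ± 0.30 against the vector and -3.60 ± 0.30 against wild-type FLT3, and -3.10 ± 0.30 against wild-type FLT3 with ligand. These comparisons share the ITD arrays. Over all genes, the Ankrd22 difference was the second lowest against the mean of the controls, behind only the stefin gene Stfa2 at -3.00, and it took rank 84 of 20227 against parental cells. Just behind it among the genes without overlap stood the complement gene C3 at -2.54 and the lectin gene Clec4b2 at -2.51.

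Differences among parental, vector and wild-type cells were not used in the choice of the gene. The ligand arrays stood outside that choice, while the other control groups entered it through their mean. Differences between ligand and those groups are therefore not free of the choice. All differences among the control groups were tested with limma over all genes. Ankrd22 rose in wild-type FLT3 cells over parental cells by 2.07 ± 0.39 (adjusted p 0.00145, with 14.6% of genes called) and in wild-type cells with ligand over parental cells by 1.56 ± 0.39 (adjusted p 0.0103, 15.4% called). The call with ligand was lost without parental array 1 (adjusted p 0.061), parental array 2 (0.0604) or ligand array 2 (0.0781). The vector line stood 1.33 ± 0.39 above parental cells, which was not called (adjusted p 0.0845, 2.23% called). Wild-type FLT3 stood 0.73 ± 0.39 above the vector (adjusted p 0.299, 8.22% called). With ligand the level was 0.23 ± 0.39 above the vector (adjusted p 0.769, 10.6% called), a difference of -0.04 when the filter required a mean above 5.599.

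Wild-type cells with ligand differed from those without it by -0.50 ± 0.39 (adjusted p 0.811). Whether IL-3 was still present with ligand is not stated, so ligand and a loss of IL-3 cannot be told apart. Both arrays with ligand lay below both without it, by more than the difference within each pair. No gene was called in that contrast (0.0%), where limma gave 1555 genes at an unadjusted p under 0.05.

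All groups share 1 spread in the fit, so the ITD lines entered the SE of 0.39. In a fit of the 8 control arrays alone, added after the data had been seen, the SE was 0.09. That SE rests only on the spread within pairs, which may be technical. Its p-values therefore do not measure how far separately made lines of 1 kind would differ. There Ankrd22 was called between vector and parental cells (adjusted p 4.45e-05, 13.7% of genes called), between wild-type FLT3 and vector (adjusted p 0.000601, 23.0% called) and, lower, with ligand against wild-type FLT3 (adjusted p 0.0164, 5.68% called). The difference between ligand and vector stayed uncalled (adjusted p 0.11, 26.4% called). Without ITD line 7 alone, the fit of the remaining 16 arrays had an SE of 0.22 and called the vector against parental cells (adjusted p 0.00248) and wild-type FLT3 against the vector (adjusted p 0.0416). The control levels came in the order parental, vector, ligand, wild-type. In the fit of the control arrays alone each neighbouring step in that order was called except vector to ligand, and in the fit of all 17 arrays none of these steps was called.

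The 11 probe sets told nearly the same story. Their ITD difference from the controls ran from -3.32 to -1.97, and every probe set was lower with ITD on average than in each of the other 4 groups. In 6 of 11 every ITD array was below every other array, against 0.731% of the 237584 used probe sets. This count uses the contrast that chose the gene. In 10 of 11 both vector arrays exceeded both parental arrays, in 10 both wild-type arrays exceeded both vector arrays, and in 9 both arrays with ligand lay below both wild-type arrays. Vector and ligand were divided, with the ligand arrays both higher in 4 probe sets and both lower in 4.

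Probe set 5154321 followed the mean of the others most closely over the 17 arrays (r = 0.993). It read 7.84 and 8.12 in parental cells, 9.44 and 9.60 with the vector, 10.35 and 10.36 with wild-type FLT3, and 9.55 and 9.77 with ligand, and its ITD arrays had a lowest value of 5.37 and a highest of 7.43. The groups did not overlap apart from the vector and ligand arrays. Probe set 4925332 followed least (r = 0.845). It read 5.45 and 5.16 in parental cells, 4.03 and 5.95 with the vector, 7.54 and 7.08 with wild-type FLT3, 6.74 and 7.23 with ligand, and 3.23 to 4.83 with ITD, so that 1 vector array fell among the ITD arrays. Its ITD mean of 3.90 and the 4.2 of probe set 5224044 lay below the 4.599 that a mean over arrays had to exceed. In probe sets 4388373, 4870181, 5224044 and 5524680, line 7 reached above the lower parental array, at 7.16 against 6.85, 8.33 against 8.11, 5.68 against 5.22 and 8.54 against 8.12. In probe set 4388373 line 9 did so too, at 7.01.

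**Figure D2:**
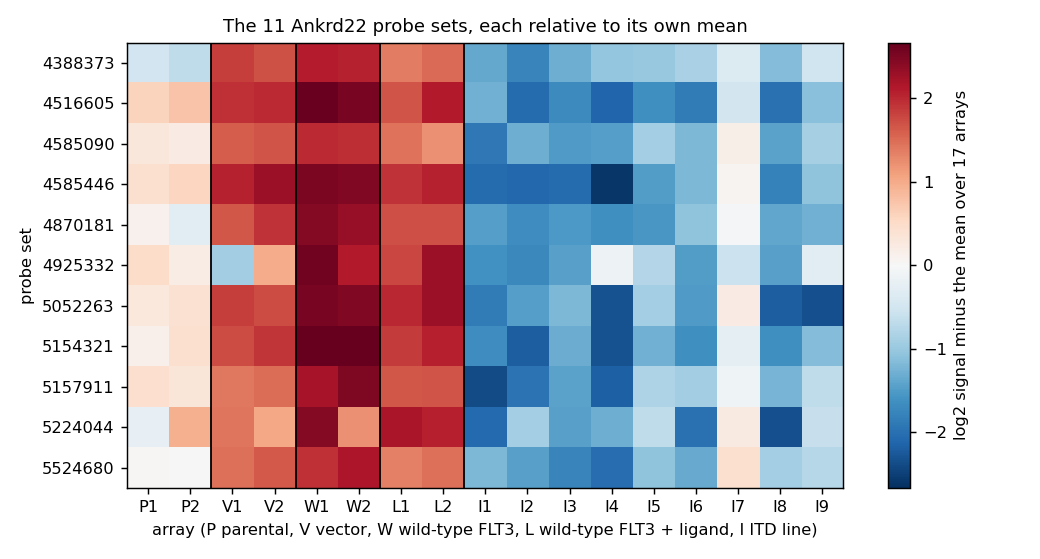
Log2 signal of each Ankrd22 probe set (rows) on each array (columns), as the difference from the mean of that probe set over the 17 arrays. Red is higher and blue lower, and black lines part the groups. The wild-type columns are the reddest in most rows, and 10 of 11 rows have line 7 as their highest ITD array.

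Among the ITD lines, line 7, at 7.47, stood 0.91 above the next line and 0.26 below the lower parental array, while the other 8 lines spanned 0.76. Line 7 was the highest ITD line in 10 of 11 probe sets. The SD over the 9 lines was 0.537, against 0.104 within control pairs, an F ratio of 26.6 (one-sided F test with 8 and 4 degrees of freedom over all genes, adjusted p 0.0672, 2.55% of genes called). The spread was not called. The choice of a gene whose ITD arrays overlap no other array limits how high a line could lie. Without line 7 the SD was 0.289 and the F ratio 7.69 (adjusted p 0.197). The ITD difference from the controls was -2.82 without that line. Flt3, read with probes for the mouse gene, was 7.11 in line 7 and between 7.08 and 7.32 over the ITD lines, so line 7 did not stand apart in it. The Flt3 means were 5.25 in parental, 5.19 in vector and 6.76 in wild-type FLT3 cells, higher where human FLT3 had been introduced. How far these probes read the human transcript was not tested.

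The genes nearest to Ankrd22 in pattern were sought among 700 genes with at least 3 probe sets and an SD of at least 0.5 over the arrays, by Pearson's r over the 17 arrays. These r are descriptions with no test: the arrays share 5 groups, and the ITD difference alone gives genes that fell in ITD a high r. The median r over the 700 genes was 0.057 and the 95th percentile 0.895. Pram1, which encodes an adaptor protein of myeloid cells, came first at 0.979, then Evi2a, a gene of a membrane protein at a retroviral integration site of myeloid tumours, at 0.975, and Gla, the gene of the lysosomal enzyme alpha-galactosidase A, at 0.968. A predicted gene model among the first was passed over.

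Pram1 read 7.11 and 7.21 in parental cells, 7.69 and 7.74 with the vector, 8.52 and 8.41 with wild-type FLT3, 8.19 and 8.23 with ligand, and 6.01 to 6.75 with ITD (mean 6.39). Its groups came in the same order as those of Ankrd22, and no ITD array overlapped another group. Its ITD difference from the controls was -1.39 ± 0.10. Gla read 9.42 and 9.32, 9.76 and 9.85, 10.12 and 9.95, and 9.59 and 9.81 in the same order of control groups, and 8.46 to 9.17 with ITD, so that its vector and ligand arrays overlapped.

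The next were Ceacam10 (0.949), a secreted member of the carcinoembryonic antigen family, Wfdc21 (0.943), the lymphotoxin gene Ltb (0.943), and Hcar2 (0.941), a receptor for niacin and ketone bodies. The chemokine gene Ccl5 (0.940), the RNA-binding protein gene Rbm47 (0.935) and the hydrolase gene Abhd2 (0.935) closed the 10, and the gene ranked 11 stood at 0.934. The choice by r over these arrays favours genes with the group order of Ankrd22. In all 10 the vector mean exceeded the parental mean and parental cells were the lowest control group. In 6 of 10, wild-type FLT3 was the highest of the 5 groups, as for Ankrd22, or, in Ceacam10, level with ligand (both means 7.25). Ltb instead was highest with ligand, at 10.98 and 10.95 against 10.07 and 10.21 with wild-type FLT3 alone.

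Line 7 was the highest ITD line for 7 of the 10 and among the first 3 for all of them. These genes were chosen for likeness over arrays that include line 7, so the counts follow in part from the choice. Over the 9 ITD lines r with Ankrd22 was 0.81 for Evi2a, 0.79 for Gla and 0.75 for Pram1, and without line 7 it was 0.81, 0.81 and 0.62. For Ceacam10 and Hcar2 it was 0.31 and 0.45, and -0.02 and -0.40 without line 7. Over the 8 control arrays r was 0.97, 0.92 and 0.96 for Evi2a, Gla and Pram1. For Rbm47, Ccl5 and Abhd2 r was 0.84, 0.79 and 0.79 over the ITD lines (0.58, 0.59 and 0.55 without line 7) and 0.82, 0.93 and 0.85 over the control arrays. Which genes made the first 10 depended on the measure. By Spearman's rho 5 of them remained, and by the root mean square difference between centred profiles 3 (Ltb, Hcar2 and Pram1). When a gene was read as the median of its probe sets, 5 remained.

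**Figure D3:**
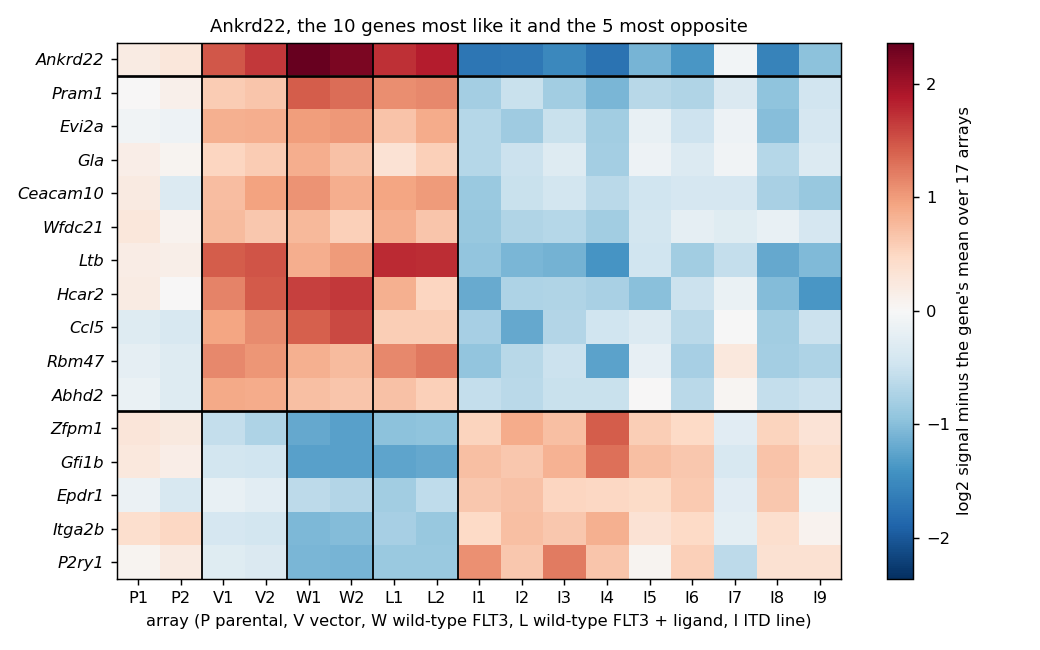
Log2 signal relative to the mean of each gene over the 17 arrays (columns), for Ankrd22 (top row), the 10 genes with the highest r to it and the 5 with the lowest. Red is higher and blue lower. The lower 5 rows show the reverse of the Ankrd22 row, and line 7 is the palest ITD column in the top row.

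The genes most opposite to Ankrd22 over the 17 arrays were Zfpm1, which encodes the GATA1 cofactor FOG1, at r = -0.950, the transcriptional repressor gene Gfi1b at -0.948, Epdr1 at -0.921, the platelet integrin gene Itga2b at -0.920 and the ADP receptor gene P2ry1 at -0.903. Gfi1b read 9.78 and 9.68 in parental cells, 9.10 and 9.07 with the vector, 8.25 and 8.24 with wild-type FLT3, 8.28 and 8.32 with ligand, and 9.15 to 10.84 with ITD. Its lowest ITD array was line 7, the line with the most Ankrd22, and this held for all 5 genes. They were chosen for an opposite pattern over the same arrays, so this follows in part from the choice. Itga2b had nearly equal means with ITD and in parental cells (11.32 and 11.35). The mean of 5 measured erythroid and megakaryocyte markers, Itga2b among them, was 7.89 in line 7, the lowest of the ITD lines, which ran to 9.51, and between 6.90 and 9.33 on the control arrays. In ITD against the controls 3 of these 5 rose and 0 fell (11.2% and 8.15% of all genes). The mean of 4 measured eosinophil markers was 9.40 in line 7, the highest of the ITD lines, which began at 6.86. On the control arrays it lay between 5.52 and 10.09. The part of such cells in the Ankrd22 values was not tested.

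Within the ITD lines alone, 334 genes had an SD of at least 0.5, and those with the highest r to Ankrd22 were the protease gene Ctss (0.93), Dppa5a (0.89), the invariant chain gene Cd74 (0.88), the matrix protein gene Thbs1 (0.84) and the phosphodiesterase gene Pde2a (0.81). Ctss, which cuts the invariant chain in antigen-presenting cells, read 5.70, 5.72, 5.68, 5.54, 7.21, 6.15, 8.02, 6.07 and 6.31 in lines 1 to 9. Lines 7 and 5 were its highest, and both were among the 3 highest for Ankrd22. Without line 7, r was 0.80 for Ctss, 0.78 for Dppa5a and 0.47 for Cd74, but 0.08 for Thbs1 and -0.09 for Pde2a, whose likeness rested on that line. In parental cells Ctss read 5.34 and 5.11 and Cd74 5.71 and 5.39, below every ITD line, where Ankrd22 was above every ITD line. Dppa5a read 5.69 and 5.42 there, above every ITD line but line 7. Thbs1 and Pde2a had parental means within 0.01 of their ITD means.

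The gene lists set beside Ankrd22 were late granule and mature neutrophil genes, monocyte and macrophage genes and interferon response genes. Of 22 neutrophil genes, 15 fell and 1 rose in ITD against the controls, where 8.15% of all genes fell and 11.2% rose, and the list median was -0.87 against -0.011 over all genes. The largest were Ly6g, a surface marker of neutrophils (-2.54 ± 0.24), the calprotectin gene S100a9 (-2.18 ± 0.24), the haptoglobin gene Hp (-2.08 ± 0.21) and Ifitm6 (-1.92 ± 0.32). Their likeness to Ankrd22 differed: r over the 17 arrays was 0.92 for S100a9, 0.85 for Ifitm6, 0.83 for Hp and 0.43 for Ly6g. An r above 0.8 was found for 8 of the 22, against 1.28% of all genes. The ITD difference on which Ankrd22 was chosen enters this r. The count therefore follows in part from the fall of the list in ITD. The list median of r was 0.70 over 17 arrays but 0.15 over the ITD lines. The list mean ran from 7.19 to 8.10 in the ITD lines and stood at 7.80 in line 7.

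Of 17 measured monocyte and macrophage genes 8 fell and 0 rose (8.15% and 11.2% of all genes), with a list median of -0.48 against -0.011 over all genes. The largest differences were Ctss (-1.98 ± 0.31), Adgre1 (-1.59 ± 0.23), Mpeg1 (-1.36 ± 0.19) and the lipopolysaccharide receptor gene Cd14 (-1.30 ± 0.13). The median r of the list with Ankrd22 was 0.53 over the 17 arrays, and 3 of the 17 genes had an r above 0.8. This count too follows in part from the fall in ITD. The values ran from -0.43 for Ms4a7 to 0.93 for Cd14. The list mean was 6.78 in line 7, the highest of the ITD lines, which began at 6.09, and the control arrays lay between 6.63 and 7.16. In these bulk cultures fewer cells of a type and less RNA per cell cannot be told apart, and the part of such cells in the Ankrd22 values was not tested. T cell, B cell and stroma markers stayed low, with list means of at most 6.45 on any array, and the myeloblast list, with Ctsg (cathepsin G) highest at a mean of 12.18, had means between 9.26 and 10.17. Of its 9 measured markers 4 fell and 0 rose in ITD against the controls (8.15% and 11.2% of all genes).

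Of 22 measured interferon response genes, 14 fell and 0 rose in ITD against the controls (8.15% and 11.2% of all genes). Without the vector line, however, 2 were called. Against the vector, wild-type FLT3 cells had 14 of 22 lower (2.71% of all genes lower and 5.5% higher) with a list median of -1.20. Rtp4 differed by -3.68 ± 0.51 there (adjusted p 0.00044). Ankrd22 was 0.73 higher in the wild-type than in the vector line, which was not called (adjusted p 0.299). From parental cells to the vector the list mean went from 6.60 to 8.24, where Ankrd22 stood 1.33 higher. The difference between Ankrd22 and the list was not tested. The median r with Ankrd22 was 0.38 over 17 arrays. The 4 largest differences in ITD were those of Rtp4 (-1.05 ± 0.27), Rsad2 (-0.96 ± 0.16), Irf7 (-0.95 ± 0.16) and Ifit1 (-0.94 ± 0.30).

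Ifit1 and Ifit2 are also neighbours of Ankrd22 on chromosome 19. In the RefSeq order the 10 nearest genes with a value on the side of lower coordinates were, from the nearest, Lipm, Lipn, Lipk, Lipf, Lipo1, Lipo3, Rnls, Atad1, Papss2 and Minpp1, of which the first 6 encode acid lipases or their relatives. On the other side stood Stambpl1, a deubiquitinase gene, the smooth muscle actin gene Acta2, the death receptor gene Fas, Ch25h, the lysosomal lipase gene Lipa, Ifit2, Ifit1, Slc16a12, Pank1 and Kif20b. In ITD against the controls 2 of the 20 fell, Papss2 (-0.50 ± 0.13) and Ifit1 (-0.94 ± 0.30), and 4 rose, Kif20b (0.65 ± 0.12), Minpp1 (0.36 ± 0.08), Pank1 (0.25 ± 0.08) and Atad1 (0.20 ± 0.07). These are shares near those of all genes (8.15% lower and 11.2% higher), and 2 or 3 of the 20 were called without parental array 1 or 2, vector array 1 or 2, wild-type array 2 or ITD line 5. The adjoining genes Lipm (0.02 ± 0.14) and Stambpl1 (-0.11 ± 0.10) were not called, and the differences of the other neighbours lay between -0.25 and 0.20.

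**Figure D4:**
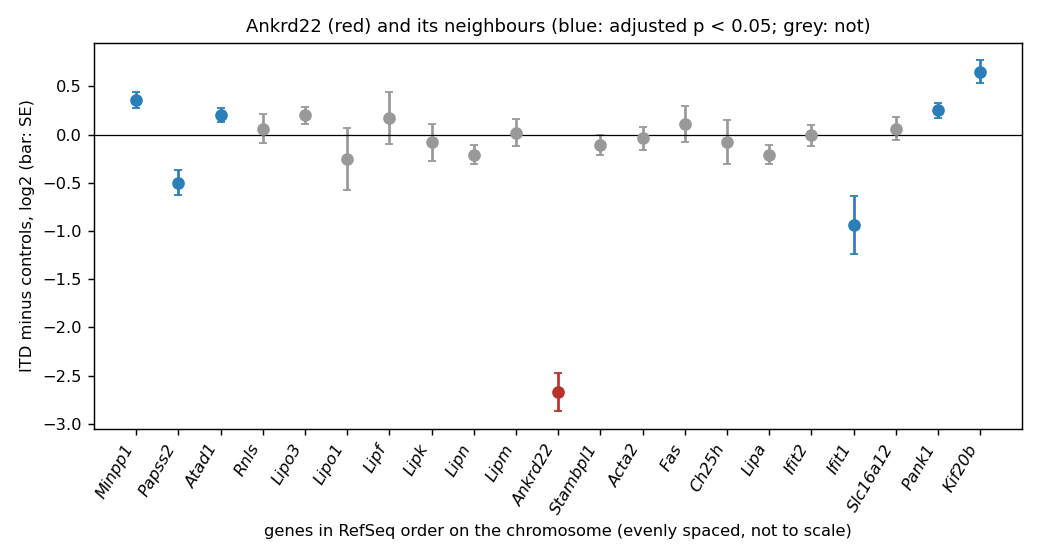
Difference between ITD and the mean of the controls (log2, vertical axis; bars are SE) for Ankrd22 and the 10 nearest genes with a value on either side, in chromosome order and evenly spaced (horizontal axis). Ankrd22 lies at -2.67, and its neighbours lie between -0.94 and 0.65.

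Stambpl1, the next gene, nevertheless shared the pattern of Ankrd22 among the controls. It read 8.07 and 7.87 in parental cells, 8.53 and 8.65 with the vector, 9.45 and 9.35 with wild-type FLT3, and 9.18 and 9.19 with ligand. Its ITD lines lay between 8.24 and 8.93, above parental cells. The group order in the controls was that of Ankrd22 and r over the 8 control arrays was 0.95, while r over the 9 ITD lines was 0.54. Such an r over the control arrays was not particular to Stambpl1. Ankrd33b and Ankrd40 also had 0.95 and Ctss had 0.93, where the median over all other genes was 0.12. Stambpl1 rose by 0.81 ± 0.19 in wild-type FLT3 cells over the vector (adjusted p 0.0122), a call lost without vector array 1 or 2 or wild-type array 1 or 2 (adjusted p from 0.0604 to 0.11). Of the 20 neighbours Atad1 was also called there, at 0.60 ± 0.13 (adjusted p 0.00725), and no other was, so that 2 of 20 were called against 8.22% of all genes. The Atad1 call was lost without vector array 1 (adjusted p 0.0877), wild-type array 1 (0.0525) or wild-type array 2 (0.0673), and with medians of probe sets (0.208).

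Of 43 other measured members of the Ankrd series, named for their ankyrin repeats, 6 fell and 8 rose in ITD against the controls (8.15% and 11.2% of all genes), with a median of -0.01 and a range from -0.53 to 0.59. Without parental array 1 or 2, vector array 1 or 2, or wild-type array 2, 8 or 9 of the 43 were called. The largest were Ankrd10 (0.59 ± 0.12), Ankrd12 (-0.53 ± 0.12), Ankrd26 (0.52 ± 0.08), Ankrd49 (0.45 ± 0.09), Ankrd54 (0.44 ± 0.08) and Ankrd23 (0.43 ± 0.14). None of the 43 had an r above 0.8 with Ankrd22, and their median r was -0.05. The lowest was that of Ankrd54, at -0.89 over the 17 arrays and -0.86 over the ITD lines without line 7. Between wild-type FLT3 and vector 3 of the 43 fell and 1 rose (2.71% and 5.5% of all genes).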

How the data were processed

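Signals of 17 arrays were used as deposited. The submitters' processing notes name RMA and Affymetrix Expression Console 1.1 as how the authors made the deposited log2 values per probe set, and neither a genome build nor a probe set filter is given in the sources used here. RMA normalises between arrays, so a change shared by most genes would not show. Of 325444 probe sets with a symbol in the platform annotation, 6684 with several were left out, and symbols were updated through RefSeq synonyms. Probe sets with a mean above 4.599, the median over all probe sets, were averaged per gene. Group means of all genes were fitted with limma 3.58.1 in R 4.3.3 (eBayes with a trend, 12 residual degrees of freedom), two-sided, and a gene was called at an adjusted p under 0.05 (Benjamini-Hochberg, all genes tested). The fit was tested on simulated data. Likeness, F ratios and figures were computed in Python 3.11.15.

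The member and the gene lists were chosen with earlier results of these data known. Named were the 10 genes with the highest and the 5 with the lowest r to Ankrd22, the 5 with the highest r over the ITD lines, up to 4 called members of each list with the largest differences, all 20 neighbours and 6 of the Ankrd series. Predicted gene models were passed over. Alternatives were other filters, summaries, normalisation and variance models, single arrays or control lines left out, a replicate block and, added after seeing the data, the 8 control arrays alone. Coordinates are given only for the RefSeq promoters, and no protein sequences were used here.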

Additional observations from a re-analysis of the deposited data

Results flagged for a closer look

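Within the 9 ITD lines, 52 sets of values (Ankrd22, its probe sets and the named genes) were searched for a line whose gap to the next took up an unusually large share of the whole range. Chance gives about 1 such set in 20, the sets are not independent, and 8 were found, each with line 7 at the end. Line 7 was highest for Ankrd22 (7.47, the other lines between 5.80 and 6.56), for its probe sets 4585090 (9.39, others 7.33 to 8.35) and 4870181 (8.33, others 6.73 to 7.32), for Cd74 (9.95, others 6.53 to 8.0), for Thbs1 (6.96, others 5.27 to 5.71) and for Pde2a (7.52, others 5.76 to 6.34). It was lowest for Ifit2 (6.72, others 7.16 to 7.56) and for Pank1 (7.95, others 8.33 to 8.54). Cd74, Thbs1 and Pde2a had been chosen for a high r with Ankrd22 over these same lines. Each mutant had 1 array, so that a property of the mutant, of the culture or of the array cannot be told apart.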

How the results depend on the processing

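The control comparisons of Ankrd22 kept their direction under every alternative, except ligand minus vector, which was -0.04 under the stricter filter. The stricter filter called vector minus parental, at 1.57 (adjusted p 0.043), and the spread among ITD lines, at an F ratio of 110.0 (adjusted p 0.0301). The replicate numbers of the control pairs did not pair the arrays, since the correlations of their deviations lay between -0.118 and 0.092. Fits of the control arrays alone, with or without a replicate block, use only the spread within pairs, which may be technical. With a replicate block on the 8 control arrays, the vector difference from parental cells of 1.33, the wild-type difference from vector of 0.73 and the ligand difference from wild-type of -0.50 were called (adjusted p 0.00013, 0.00117 and 0.0261), as they were at the same values on those arrays without it. Leaving out 1 array at a time gave 1.23 to 1.44 for vector minus parental, 2.00 to 2.14 for wild-type minus parental, 0.63 to 0.84 for wild-type minus vector, -0.58 to -0.43 for ligand minus wild-type, 0.13 to 0.33 for ligand minus vector and 1.5 to 1.63 for ligand minus parental. The ITD difference ran from -2.82 to -2.62 in this way, and was -3.24 without the parental and -2.20 without the wild-type controls; the F ratio ran from 7.69 to 39.6.

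For the lists, called in ITD against controls, leaving out arrays gave 2 to 6 neighbours and 8 to 14 of the Ankrd series. In the main fit 8.15% of all genes fell and 11.2% rose in that contrast. The share of all genes under its alternatives is not given here. Shifts in its counts therefore cannot be read as particular to the lists. The neighbours numbered 3 with medians of probe sets. The Ankrd series had 8 with no filter, 9 without the parental and 7 without the vector controls, and the interferon list 2 without the vector controls. In wild-type minus vector, 4 neutrophil genes were called, 1 to 5 without 1 array (2 or fewer without any control array or without ITD line 1, 2 or 8), 2 with the stricter filter, 11 with the replicate block and 12 on the control arrays alone. Monocyte genes numbered 3, 1 to 3 without 1 array (1 without vector array 2 or wild-type array 1), and 5 in both control fits. Neighbours numbered 2, 0 to 4 without 1 array (vector 1 or 2, wild-type 1 or 2, ITD line 7), 1 with medians, 4 after quantile normalisation again, 7 with the block and 8 on control arrays alone. Over all genes, wild-type minus vector called 8.22% in the main fit and 23.0% on the control arrays alone. With the replicate block 4382 of the 20227 genes were called. Of the first 10 genes by likeness 7 to 10 remained without 1 array, 5 with medians or Spearman's rho and 3 by the root mean square difference. Except where the construction shows it, the cause was not tested. Among 996 values of single named genes, 945 kept their side of the threshold, 44 were no longer called, 7 became called and 0 reversed.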

Other observations

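The neutrophil list was not of 1 kind beside Ankrd22. The lipocalin gene Lcn2 had an r of 0.92 with it over the 17 arrays and 0.72 over the ITD lines, where line 7 held its highest value (12.16 of a range from 10.21) and r without that line was -0.00. The cathelicidin gene Camp, another late granule gene, had 0.06 over the 17 arrays and -0.94 over the 8 control arrays. The chemokine receptor gene Cxcr2 went the other way within the ITD lines, at r = -0.94, and at -0.76 without line 7, where it read 5.03, the lowest of lines that ran to 7.30. Over the 8 control arrays its r was -0.97, with means of 8.13 in parental cells, 6.54 with the vector and 6.15 with wild-type FLT3. Lcn2, Camp and Cxcr2 were singled out after their values had been seen.

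By Spearman's rho the genes closest to Ankrd22 beyond the shared ones were S100a9 (0.941), S100a8 (0.917), Trem3 (0.912), Gfi1 (0.895) and Hsd11b1 (0.895). These are neutrophil genes in part: S100a8 and S100a9 form calprotectin, and Gfi1 is a transcriptional repressor needed for neutrophils. Gfi1b, its relative, stood among the most opposite genes.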
